A study of Mus musculus with 8 samples.

Results

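The fast fiber forms of troponin, the myosin light chains, myosin-binding protein C and α-actinin are encoded by 7 genes, which were followed in the gastrocnemius of mice without AMPKα1 or AMPKα2 (knockout, KO) and of wild-type (WT) mice. The genes were *Tnnt3*, *Tnni2*, *Tnnc2*, *Mylpf*, *Myl1*, *Mybpc2* and *Actn3*, chosen by symbol, and all sites with these symbols were used. They made up 7 of the 15349 genes and 100 of the 56483 polyadenylation sites in the count table. In the AMPKα1 model, all 7 genes had lower levels in KO than in WT, by 0.52 to 1.53 on the log2 scale. The size of this depended on AMPKα1 WT library 1. Without it 6 of the 7 were below 0, and the median log2 fold change went from −0.81 to −0.30. In the AMPKα2 model, 4 were above and 3 below 0. Of the 83 tested sites away from a gene's leading site, 72 (86.7%) had a log2 fold change above 0, as had 59.8% of such sites over all genes, and edgeR called 0 of them. By edgeR no member passed the test at gene level in either model, and 1 of 90 sites, in *Tnnt3*, passed the AMPKα2 test of site usage, where 0.129% of 14707 sites did. That call was lost without AMPKα2 KO library 2.

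Troponin T, I and C form the complex that places calcium control on the thin filament: troponin C binds calcium, troponin I holds actin and myosin apart at rest and troponin T ties the complex to tropomyosin. The light chains wrap the lever arm of each myosin head, myosin-binding protein C links the thick filament to its neighbors and α-actinin anchors thin filaments at the Z-disc. Skeletal muscle carries separate genes for the fast and the slow forms of most of these proteins, and the gastrocnemius of the mouse is a mainly fast muscle.

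The data were 8 WTTS-seq libraries, which count reads at the 3′ ends of polyadenylated RNA, with 2 mice in each of 4 groups: AMPKα1 KO, AMPKα1 WT, AMPKα2 KO and AMPKα2 WT. The KO mice lack AMPKα1 (*Prkaa1*) or AMPKα2 (*Prkaa2*), a catalytic subunit of AMP-activated protein kinase, through deletion of DNA that codes for part of its catalytic domain. All mice were male. By the methods of the study, the KO mice were about 6 weeks old in the AMPKα1 model and about 8 weeks old in the AMPKα2 model, with no age given for the WT mice. The labels place all 8 mice on C57BL/6, whereas the methods give 129S2/SvPas for the AMPKα1 KO mice. Age, strain and model therefore cannot be told apart, and levels were compared within a model. With no WT age given, KO and WT mice of a model may differ in age. As labels and methods disagree on the AMPKα1 KO strain, KO and WT mice may differ in strain there too. Comparing within a model does not remove such differences. Each library came from 1 mouse, and neither the labels nor the methods say whether KO and WT mice were littermates.

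The libraries held between 2311242 and 3549156 reads. The targeted genes were low: *Prkaa1* had 0 and 82 reads in AMPKα1 KO against 15 and 0 in WT, and *Prkaa2* had 40 and 71 reads in AMPKα2 KO against 87 and 62 in WT. The 3′ end of each gene lies outside the deleted part, and the places of the counted sites within these genes were not examined. These reads therefore do not check the genotype. All 5 skeletal muscle fiber markers (*Ckm*, *Acta1*, *Mb*, *Des* and *Ttn*) had reads in every library. Marker levels in this paragraph are reads per 1000000 reads of the library. Elsewhere CPM are reads per 1000000 after library sizes were scaled by TMM factors, a normalization. The summed level of these markers was 25090 and 16910 in AMPKα1 KO and 21330 and 19300 in AMPKα1 WT. It was 34940 and 32400 in AMPKα2 KO and 24090 and 19990 in AMPKα2 WT. The 4 fibroblast markers were also present in every library, at 9649 to 15930 in AMPKα1 libraries and 1616 to 2236 in AMPKα2 libraries. The 4 adipocyte markers summed to 2379 in AMPKα1 KO library 2 and to between 167.1 and 636.9 in the other 7 libraries. The part of these marker levels in the results below was not tested. In whole muscle, fewer fast fibers and less RNA per fiber cannot be told apart.

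The leading site of each gene, that is the site with most reads over the 8 libraries, lay at its annotated 3′ end. The distance to the end of the gene in GENCODE M21 was 7 bases or fewer for *Tnnt3*, *Tnni2*, *Tnnc2*, *Mylpf*, *Myl1* and *Actn3*, and 23 bases for *Mybpc2*. These distances are for the listed position of a site, whose merged read ends spanned from 132 (*Mybpc2*) to 1681 bases (*Tnni2*). The following windows cover bases 40 to 11 counted back from the site, or from the annotated end where the site lay 3 bases past it. They show the RNA strand from GENCODE M21 transcripts on GRCm38, with the polyadenylation signal AATAAA in capitals. The set is printed because most reads of these genes, apart from *Mybpc2*, were counted at these sites.

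*Tnnt3*, chr7:142515970-142515999, plus strand: cttctggggtctaggAATAAAgttatcaga

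*Tnni2*, chr7:142444371-142444400, plus strand: tacttggcctcgctccAATAAAggattcac

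*Tnnc2*, chr2:164777173-164777202, minus strand: ttgggctctgtgactggaaggAATAAAagt

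*Mylpf*, chr7:127214252-127214281, plus strand: tggccctcAATAAAactcaactggtctttg

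*Myl1*, chr1:66924307-66924336, minus strand: aaatactacatcAATAAActtggtcagtct

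*Mybpc2*, chr7:44501732-44501761, minus strand: tctttccagaatgatcactgtgataaagaa

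*Actn3*, chr19:4861232-4861261, minus strand: ccatgcttctgAATAAAgatcaggctgtgg

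AATAAA stood in the 40 bases before 6 of the 7 leading sites, and *Mybpc2* had neither AATAAA nor ATTAAA in its window. Among the 31 other member sites with 40 annotated exon bases before them, 2 held AATAAA. Over all sites with such a window, 38.1% of 24839 held AATAAA and 12.2% held ATTAAA, counted on the strand of the site. Most of the other member sites lay within the gene body. Of the 97 member sites on assembled chromosomes, 50 were in introns, 32 in coding exons and 9 in UTR exons.

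Apart from leading sites, *Tnnt3* and *Mybpc2* held all the sites with at least 10% of the reads of their gene in a library. *Tnnt3* had a site in a coding exon at chr7 position 142511334 and sites in introns at 142512189 and 142510888. The 30 bases that follow the first of these sites, and those that follow the *Mybpc2* site in a coding exon at position 44516979, are shown with each A in capitals, since a run of As after a site in the genome can itself bind oligo(dT).

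*Tnnt3*, chr7:142511335-142511364, plus strand: AAAgAAgAAgAggAgctAAtcgcActtAAA

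*Mybpc2*, chr7:44516949-44516978, minus strand: AgAAgAAAgAtgAtgAtgAtctgggtAtAc

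These windows held 15 and 12 As, and that of the *Mybpc2* coding exon site at 44513732, not printed, held 10. The median was 8 over the 28 member sites with such a window and 10 over the 15160 sites whose next 30 bases lie in the same exon. None of the 3 met the definition of an A-rich stretch used here, at least 7 As in a row or 8 in 10 bases. Of the 28 member sites with such a window, 1 met it, in *Myl1*, compared with 3639 of the 15160 sites. Sequence was read from transcripts, so member sites in introns had no such window and were not checked. Among these are the *Tnnt3* and *Actn3* intron sites that a test called, given further below. Priming at such places was not tested further.

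Together the 7 genes took up a larger part of the AMPKα1 libraries than of the AMPKα2 libraries. Their share of all reads was 6.87% and 6.62% in AMPKα1 KO and 11.9% and 8.30% in AMPKα1 WT. It was 2.21% and 2.99% in AMPKα2 KO and 3.22% and 2.83% in AMPKα2 WT. As group means, the order was AMPKα1 WT (10.1% ± 2.56, SD, n = 2), AMPKα1 KO (6.75% ± 0.178, n = 2), AMPKα2 WT (3.02% ± 0.274, n = 2) and AMPKα2 KO (2.60% ± 0.553, n = 2). The KO and WT libraries did not overlap in the AMPKα1 model and overlapped in the AMPKα2 model. With 2 libraries a group, a two-sided exact permutation test cannot give a p below 0.333, so no p is given for these shares. The Wilson 95% interval was 6.85% to 6.90% in AMPKα1 KO library 1 and about as narrow in the others. It reflects the number of reads in 1 library and leaves out the variation between mice. PCR copies were not told apart by molecular identifiers, so it may be too narrow even for counting error.

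In the AMPKα1 model, the comparison of KO with WT asks which fast fiber genes differ in mice without AMPKα1. *Tnnt3*, the fast troponin T gene, had normalized levels of 9222 and 6805 CPM in KO and of 35209 and 10953 in WT. Both KO libraries were below both WT libraries, and WT library 1 stood far above WT library 2. The log2 fold change (KO minus WT) was −1.53 (SE 0.56), with an adjusted p of 0.763 by edgeR. It was the largest of the 7, but without WT library 1 it was −0.45, smaller than in *Mylpf* (−0.96) and *Myl1* (−0.71). *Tnni2*, the fast troponin I gene, had 3414 and 2789 CPM in KO and 9042 and 3748 CPM in WT. Its log2 fold change was −1.04 (SE 0.47). *Tnnc2*, the fast troponin C gene, had 24370.1 and 20074 CPM in KO and 58095 and 19714 CPM in WT. Its KO and WT libraries overlapped, and its log2 fold change of −0.81 (SE 0.51) became 0.17 without WT library 1.

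The 2 light chain genes had values of the same sign. *Mylpf*, the gene of the phosphorylatable regulatory light chain of fast myosin, had 5452 and 5025 CPM in AMPKα1 KO and 13990 and 10222 CPM in WT. Its log2 fold change was −1.21 (SE 0.32). By edgeR its adjusted p was 0.763, and its unadjusted p was the lowest of the members. *Myl1*, the gene of the fast essential light chains, had 17872 and 18919.5 CPM in KO and 22562 and 30141 CPM in WT, a log2 fold change of −0.52 (SE 0.29). *Mybpc2*, the fast myosin-binding protein C gene, had 1051 and 998 CPM in KO and 1891 and 1259 CPM in WT, a log2 fold change of −0.62 (SE 0.36). *Actn3*, the gene of the α-actinin found in fast fibers, had 5739 and 5388 CPM in KO and 9718 and 6528 CPM in WT, a log2 fold change of −0.55 (SE 0.33). In these 4 genes the KO libraries lay close together and, on these normalized levels, below both WT libraries. As a share of all reads of the library, *Myl1* overlapped, at 1.83% and 2.09% in KO and 1.79% and 3.03% in WT.

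By the edgeR quasi-likelihood test with Benjamini-Hochberg adjustment, 0 of the 7 genes were called at an adjusted p under 0.1, where 0% of the 13924 genes tested were called. At an unadjusted p under 0.05 there were 2 members, against 4.23% of all genes. DESeq2 called 1 member, *Mylpf*, among 115 of 14612 genes, at an adjusted p of 0.0926 and a log2 fold change of −1.16. All 7 members were below 0, as were 51.1% of all genes, and their median log2 fold change was −0.81 against −0.03 for all genes. In 6 of the 7, both KO libraries were below both WT libraries on the normalized levels, which held for 18.9% of all genes. Without WT library 1, which had the highest *Tnnt3*, *Tnni2*, *Tnnc2*, *Mylpf*, *Mybpc2* and *Actn3* levels, 6 of the 7 were below 0 with a median of −0.30.

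**Figure D1:**
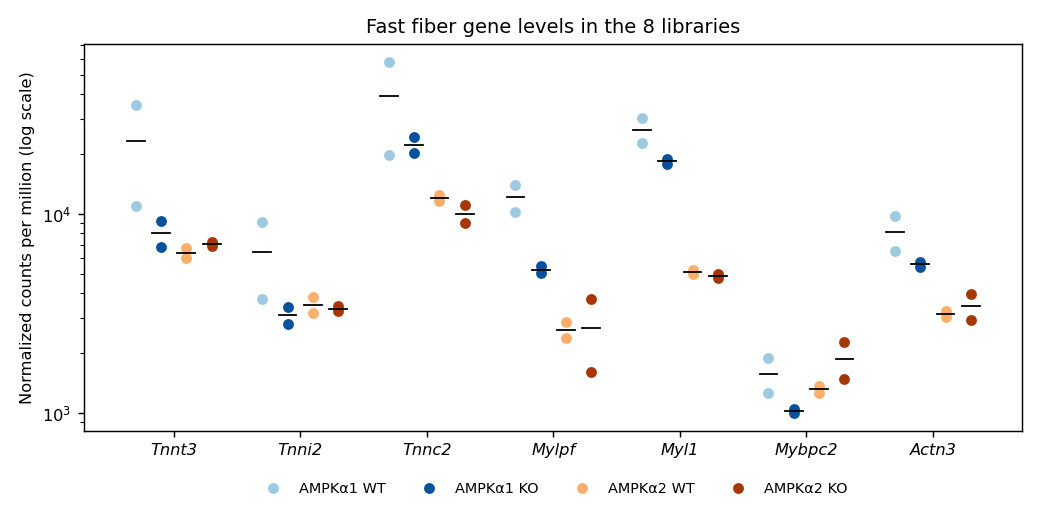
Normalized level (CPM, log axis) of each of the 7 genes in the 8 libraries, where a point is 1 library and a black line is the mean of the 2 libraries of a group. CPM were scaled within each model. In the AMPKα1 model KO points lie below WT points for all genes but *Tnnc2*, and AMPKα1 WT library 1 stands at 35209 CPM for *Tnnt3*.

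In the AMPKα2 model, the same comparison was made for mice without AMPKα2. *Tnnt3* had 6884 and 7208 CPM in KO and 5999 and 6713 CPM in WT, and *Tnni2* had 3262 and 3426 CPM in KO and 3801 and 3191 CPM in WT. *Tnnc2* had 11047 and 8992 CPM in KO and 11531 and 12427 CPM in WT. The troponin genes differed by less than 1 standard error between KO and WT, with log2 fold changes of 0.15 (SE 0.31), −0.06 (SE 0.29) and −0.26 (SE 0.33). *Mylpf* had 3729 and 1611 CPM in KO and 2379 and 2861 CPM in WT, so that 1 KO library was above and the other below both WT libraries. *Myl1* had 4752 and 4983 CPM in KO and 5202 and 4956 CPM in WT. The log2 fold changes were 0.03 (SE 0.39) for *Mylpf* and −0.06 (SE 0.30) for *Myl1*. *Mybpc2* had 2258 and 1484 CPM in KO and 1364 and 1266 CPM in WT, and its log2 fold change of 0.51 (SE 0.30) was the largest of the 7, with an adjusted p of 0.674 by edgeR. *Actn3* had 3967 and 2922 CPM in KO and 3243 and 3017 CPM in WT, a log2 fold change of 0.14 (SE 0.30).

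By edgeR, 0 of the 7 genes were called, where 0.484% of 10536 genes were, and none had an unadjusted p under 0.05. DESeq2 also called 0. The median of the members was 0.03, against −0.01 for all genes. The sign of these small values depended on the scaling: with library totals in place of TMM factors, which shifted the median of all genes to −0.19, 1 member was above and 6 were below 0. KO was above WT without overlap in 2 members (*Tnnt3* and *Mybpc2*), against 18.7% of genes, and below WT in 1 (*Tnnc2*), against 20.5% of genes.

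**Figure D2:**
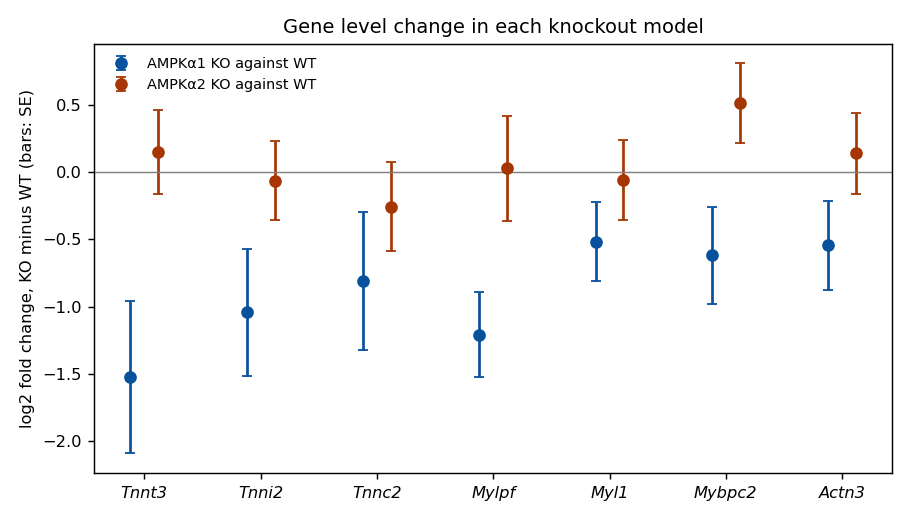
Log2 fold change (KO minus WT) of each gene by model, with bars of 1 standard error from the edgeR fit. AMPKα1 points run from −1.53 to −0.52, and AMPKα2 points from −0.26 to 0.51.

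An interaction term over all 8 libraries tested whether KO effects differed between the models. All 7 values (AMPKα2 effect minus AMPKα1 effect) were above 0. *Tnnt3* had a difference of 1.65 (SE 0.70, adjusted p = 0.707, edgeR), *Mybpc2* of 1.11 (SE 0.48, adjusted p = 0.707, edgeR) and *Mylpf* of 1.21 (SE 0.58, adjusted p = 0.739, edgeR). The other 4 ranged from 0.44 in *Myl1* to 0.96 in *Tnni2*. By edgeR 0 of the 7 were called, where 0.0586% of 15349 genes were, 2 had an unadjusted p under 0.05 (6.93% of all genes), and DESeq2 called 0. The median over the members was 0.96 and that over all genes 0.04. Without AMPKα1 WT library 1, 6 of the 7 differences were above 0 and *Tnnc2* was at −0.52.

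The site profiles of the 2 models differed before any comparison of KO with WT. Between 31 and 40 member sites had a read in each AMPKα1 library, and between 95 and 98 in each AMPKα2 library. Of the 100 member sites, 54 had no read in any of the 4 AMPKα1 libraries and 1 had none in the AMPKα2 libraries. The same was true of 12.6% and 11.4% of all 56483 sites, and each site in the table has at least 16 reads in total. *Actn3* had no AMPKα1 read at 17 of its 24 sites, *Mybpc2* at 22 of 33 and *Tnnt3* at 8 of 12, whereas *Myl1* had none at 2 of 18. In the AMPKα1 libraries 4.82% to 5.95% of member reads fell away from the leading sites, compared with 12.5% to 21.5% in the AMPKα2 libraries. The models differ in mice, age and possibly strain and library preparation, and these cannot be told apart here.

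The site counts need 2 remarks. *Myl1* counts include 3 sites on a scaffold outside the assembled chromosomes, where a second gene entry carries the same symbol, so reads could be split between the copies. *Mybpc2* includes 1 site on the strand opposite to the gene, at position 44523820, with 37 reads in AMPKα1 KO library 2 and 0 reads in the other 7 libraries.

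In the AMPKα2 model, a larger share of the summed reads was away from the leading sites in KO than in WT, although gene by gene 3 of the 7 shares overlapped and 0 of 7 passed the test given below. For the 7 genes together, 20.9% and 21.5% of the reads fell away from the leading sites in KO and 12.5% and 13.7% in WT. The mean was 21.2% ± 0.453 (SD, n = 2) in KO, and the WT libraries lay below both KO libraries. In the AMPKα1 model the shares were 5.95% and 4.82% in KO and 5.12% and 5.11% in WT, and the WT values lay between the KO values.

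*Tnnt3* had the widest gap between KO and WT in the AMPKα2 model. Its leading site at chr7 position 142516012 held 55.1% and 45.4% of its reads in AMPKα2 KO and 67.7% and 65.5% in WT. For AMPKα1 it held 69.0% and 72.7% in KO and 85.9% and 75.0% in WT. KO was thus lower than WT without overlap in both models. *Actn3* had 72.4% and 77.4% of its reads at its leading site (chr19 position 4861222) in AMPKα2 KO and 81.9% and 83.5% in WT, while in the AMPKα1 model the 4 libraries held 99.1% to 99.7% there. *Tnnc2* had 88.6% and 91.3% at its leading site (chr2 position 164777163) in AMPKα2 KO and 94.4% and 93.4% in WT. Its 4 AMPKα1 libraries held at least 99.1% there, and AMPKα1 WT library 1 had 904 *Tnnc2* reads at other sites, compared with 27 to 94 in the other 3.

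*Mybpc2* was the gene with its reads most spread out. Its leading site at chr7 position 44501722 held 17.2% and 30.5% of its reads in AMPKα2 KO, and both WT libraries lay between these values. In AMPKα1 WT it held 35.5% and 45.8%, and both KO libraries lay lower, the lowest at 22.9%. The *Mybpc2* sites within the gene with at least 10% of its reads in a library were in an intron at 44520308, in a coding exon at 44516979, in an intron at 44514533 and in a coding exon at 44513732. The last of these had 442, 378, 407 and 452 reads in the AMPKα2 libraries (KO 1, KO 2, WT 1 and WT 2) and no read in the AMPKα1 libraries. *Mylpf*, *Tnni2* and *Myl1* ended almost wholly at 1 site, at 127214291 and 142444413 on chr7 and 66924297 on chr1. That site held at least 95.8% of the reads of the gene in every library. Its merged read ends spanned 1571, 1681 and 276 bases, so the share is not that of a single position. In the AMPKα2 model the leading share was lower in KO without overlap for 4 of the 7 genes (*Tnnt3*, *Tnnc2*, *Mylpf* and *Actn3*). The same held for 24.6% of the 3937 genes with enough reads. In the AMPKα1 model it was lower in KO without overlap for 2 of 6 members (*Tnnt3* and *Mybpc2*), against 15.7% of 6167 genes. It was higher in AMPKα1 KO for 1 member (*Myl1*), against 16.5% of those genes.

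**Figure D3:**
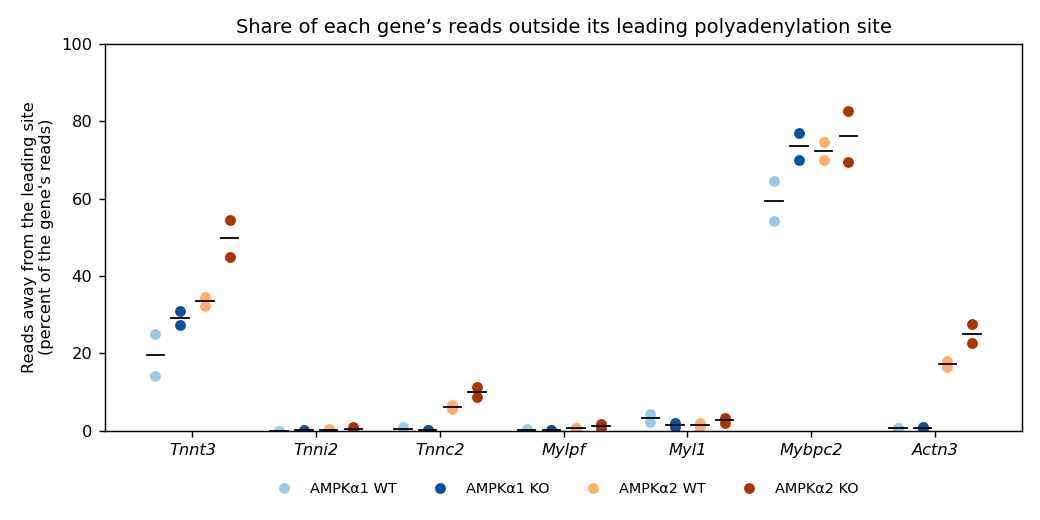
Percent of the reads of each gene that fell away from its leading polyadenylation site, where a point is 1 library and a black line is the mean of the 2 libraries of a group. *Tnnt3*, *Tnnc2* and *Actn3* have higher AMPKα2 KO points than AMPKα2 WT points, and *Mybpc2* has 54.2% to 82.8% of its reads away from its leading site.

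A test of all other sites of a gene against its leading site, added after the site values had been seen, was run with edgeR for every gene with 2 or more sites. For AMPKα2 the log2 difference (other sites minus leading site, KO minus WT) was above 0 in all 7 members. It was 0.98 for *Tnnt3*, 1.13 for *Tnni2*, 0.80 for *Tnnc2*, 0.86 for *Myl1*, 1.21 for *Mylpf*, 0.41 for *Mybpc2* and 0.70 for *Actn3*. By edgeR the adjusted p ran from 0.609 to 0.824 and 0 of the 7 were called, where 0.203% of 3943 genes were, and 4 had an unadjusted p under 0.05, against 7.76% of all genes. The median of the members was 0.86 and that of all genes 0.18, and 40.8% of all genes were below 0. Without AMPKα2 KO library 1, 5 of the 7 were above 0, with a median of 0.47. *Tnni2* was then at −0.11 and *Mybpc2* at −0.19. Within AMPKα1 6 members could be tested, 2 were above and 4 below 0, and edgeR called 0 of them and 0% of 7448 genes. The 1 with an unadjusted p under 0.05 was *Tnnc2* at −2.98 (adjusted p = 0.604, edgeR), which became 1.06 without WT library 1.

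Single sites were tested next. For AMPKα1 38 of the 100 member sites had the 16 reads needed, and 0 were called by edgeR, where 0.00454% of 44024 sites were. Of the 38, 30 were below 0, as were 49.5% of all sites, and 12 had an unadjusted p under 0.05, against 3.07% of all sites. All 12 were below 0, and DESeq2 called 0. Both KO libraries were below both WT libraries at 21 of the 38, against 18.2% of all sites. The lowest p was at the leading site of *Mylpf*, with KO at 19114 and 18160 reads and WT at 25579 and 35113, a log2 fold change of −1.34 and an adjusted p of 0.543 by edgeR. It was followed by an intron site of *Myl1* at 66928760, with 326 and 209 reads in KO, 590 and 689 reads in WT and a log2 fold change of −1.94. Above 0 the lowest p belonged to sites seen in 1 KO library only, the antisense *Mybpc2* site named above and a *Myl1* intron site at 66927078 with 29 reads in AMPKα1 KO library 1 and 0 in the other 3. All 7 leading sites were below 0, with a median of −1.20. Without WT library 2, 6 member sites were among the 170 of 34866 sites called, and 5 of the 6 are named here: the leading sites of *Tnnt3*, *Tnni2*, *Tnnc2* and *Mylpf*, and the *Tnnt3* site at 142511334.

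For AMPKα2 90 member sites were tested, 0 were called by edgeR, where 0.056% of 23218 sites were, and 17 had an unadjusted p under 0.05, against 7.6% of all sites. All 17 were above 0. KO was above WT without overlap at 30 of the 90, against 18.8% of all sites, and below WT at 5, against 20.9%. The leading and the other sites went apart. Of the 7 leading sites 1 was above 0, with a median log2 fold change of −0.20, and of the 83 other sites 72 were above 0 (86.7%), with a median of 0.91. Over all genes with 2 or more tested sites, 35.3% of leading sites were above 0 with a median of −0.20, and 59.8% of other sites were above 0 with a median of 0.21. By place in the gene, 29 of 32 coding exon sites were above 0 (median 0.95), as were 37 of 44 intron sites (median 0.79). Sites of 1 gene share a transcript and are not replicates of each other.

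*Tnnt3* and *Mybpc2* held the sites with the lowest p. The *Tnnt3* intron site at 142508502 had 173 and 83 reads in AMPKα2 KO against 33 and 23 in WT, a log2 fold change of 2.63 with an adjusted p of 0.465 by edgeR and of 0.00787 by DESeq2. A *Mybpc2* intron site at 44506051 had 64 and 61 KO reads against 26 and 18 WT reads, a log2 fold change of 1.85. Below 0 the lowest p belonged to a *Myl1* site on the scaffold, with 7 and 12 KO reads, 19 and 28 WT reads and a log2 fold change of −1.12 (adjusted p = 0.687, edgeR), and to the *Tnnc2* leading site. The latter had 15375 and 20766 KO reads against 37106 and 24492 WT reads, a log2 fold change of −0.46 (adjusted p = 0.735, edgeR). DESeq2 called 3 member sites, all higher in KO, among 96 of 50017 sites. Besides the *Tnnt3* site at 142508502 these were a *Tnnt3* intron site at 142498919 (adjusted p = 0.0944) and an *Actn3* intron site at 4870887 (adjusted p = 0.00291), which are named here because of that call. The *Actn3* site had 50 and 453 KO reads against 35 and 27 WT reads, so KO library 2 carried most of it. The *Tnnt3* site at 142498919 had 213 and 56 KO reads against 53 and 32 WT reads, and KO library 1 carried most of it.

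**Figure D4:**
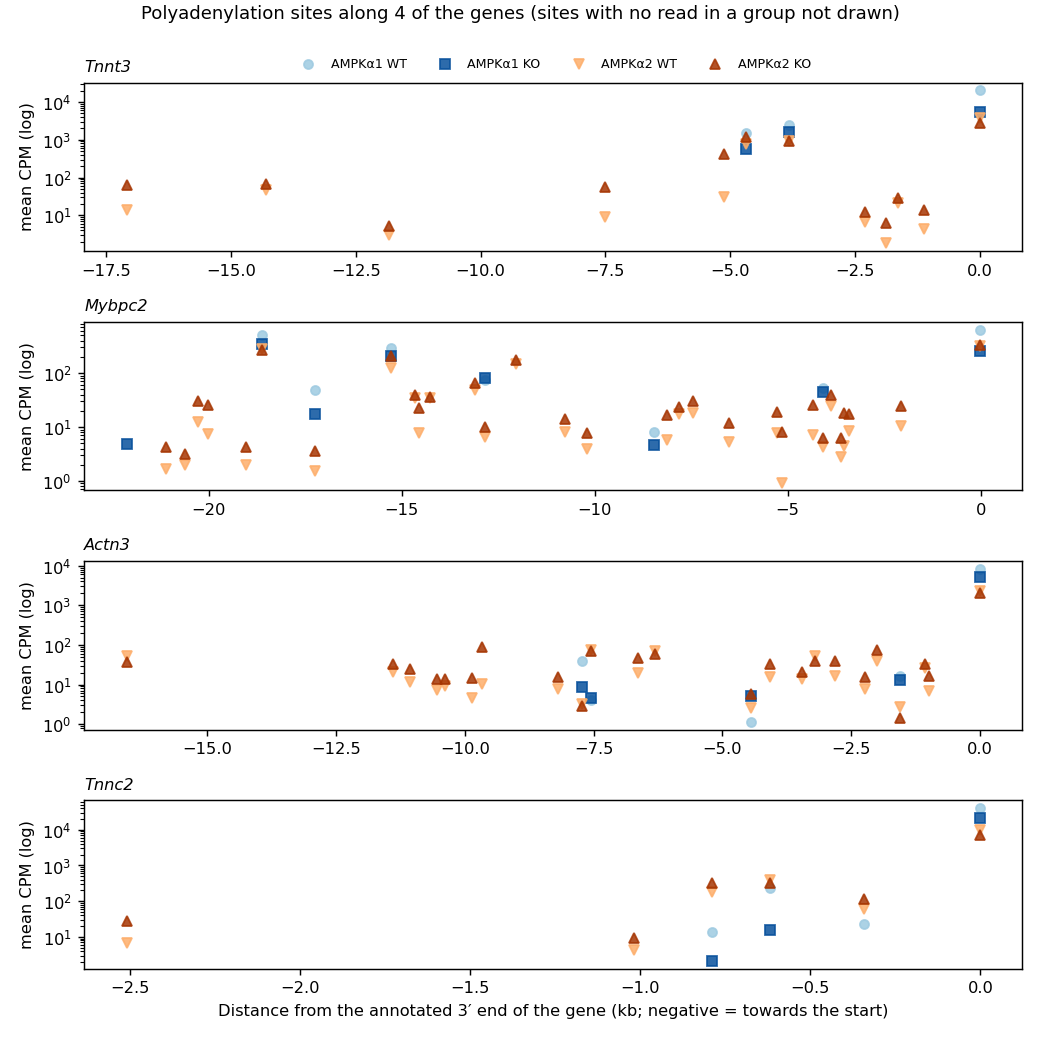
Mean level of each site (CPM, log axis) against its distance from the annotated 3′ end of the gene in kb, for *Tnnt3*, *Mybpc2*, *Actn3* and *Tnnc2* and for each of the 4 groups. A site with no read in both libraries of a group is not drawn. Most sites inside *Tnnt3*, *Mybpc2* and *Actn3* carry AMPKα2 symbols only, and there KO symbols mostly lie above WT symbols.

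Site usage compares each site with the other sites of its gene. Within AMPKα2 1 of the 90 member sites was called by edgeR, where 0.129% of 14707 sites were. It was the *Tnnt3* intron site at chr7 position 142510888, which had 93 and 2445 KO reads against 75 and 100 WT reads, a log2 fold change of usage of 3.79 and an adjusted p of 0.0723. The call rested on KO library 2. Without it the value was 0.67 with an adjusted p of 1, and the call was also lost without WT library 1 or WT library 2, each at an adjusted p of 1. At an unadjusted p under 0.05 there were 9 member sites, against 3.21% of all sites. Within AMPKα1 0 of 37 member sites were called by edgeR, where 0.00601% of 33281 sites were, and 2 had an unadjusted p under 0.05, against 2.27% of all sites.

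The slow counterparts of the 7 genes had few reads beside them. *Tnnt1*, *Tnni1*, *Tnnc1*, *Myl2*, *Myl3*, *Mybpc1* and *Actn2* encode the slow troponins, the slow light chains, the slow myosin-binding protein C and the α-actinin present in all fibers. Together they made up 5.07% and 2.54% of the reads of both sets in AMPKα1 KO, 1.86% and 2.47% in AMPKα1 WT, 5.75% and 6.18% in AMPKα2 KO, and 2.60% and 4.23% in AMPKα2 WT. The summed slow share was thus higher in KO than in WT without overlap in both models. In the AMPKα1 model the gap was narrow, and KO library 1 had the higher KO value. Such a sum has no share over all genes to set beside it. By pair, the AMPKα1 slow share was higher in KO without overlap for *Tnni1* and *Myl2* only, lower for *Actn2*, and overlapped elsewhere. In the AMPKα2 model the *Myl3* and *Actn2* pairs overlapped. *Actn2* gave 3148 of the 7212 slow reads in AMPKα1 WT library 2.

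*Tnnt1* was at 5.04% and 5.42% of the troponin T reads in AMPKα2 KO and at 1.42% and 3.24% in WT, and *Tnni1* at 3.41% and 3.37% of the troponin I reads in KO and at 1.40% and 2.32% in WT. *Myl2*, the slow and cardiac regulatory light chain gene, was at 8.47% and 16.9% of its pair in AMPKα2 KO and at 4.14% and 7.46% in WT. For AMPKα1 *Myl2* was at 19.8% and 8.26% in KO and at 3.74% and 4.37% in WT. *Tnnc1* stayed at or below 0.311% of the troponin C reads in every library. *Actn2* went the other way in the AMPKα1 model, with 9.75% and 10.3% in KO and 11.3% and 12.3% in WT.

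At gene level 0 of the 7 slow counterparts were called in either model. For AMPKα2 all 7 were above 0, with a median log2 fold change of 0.97 and values from 0.42 in *Myl3* to 1.33 in *Tnnt1*, and the lowest adjusted p was 0.278 by edgeR, in *Mybpc1*. The summed fiber markers given above were also higher in both AMPKα2 KO libraries than in both WT libraries, and their part in this was not tested. Within AMPKα1 3 were above and 4 below 0, with a median of −0.01. *Myl2* had the highest value, 0.83, and *Actn2* the lowest, −0.80.

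**Figure D5:**
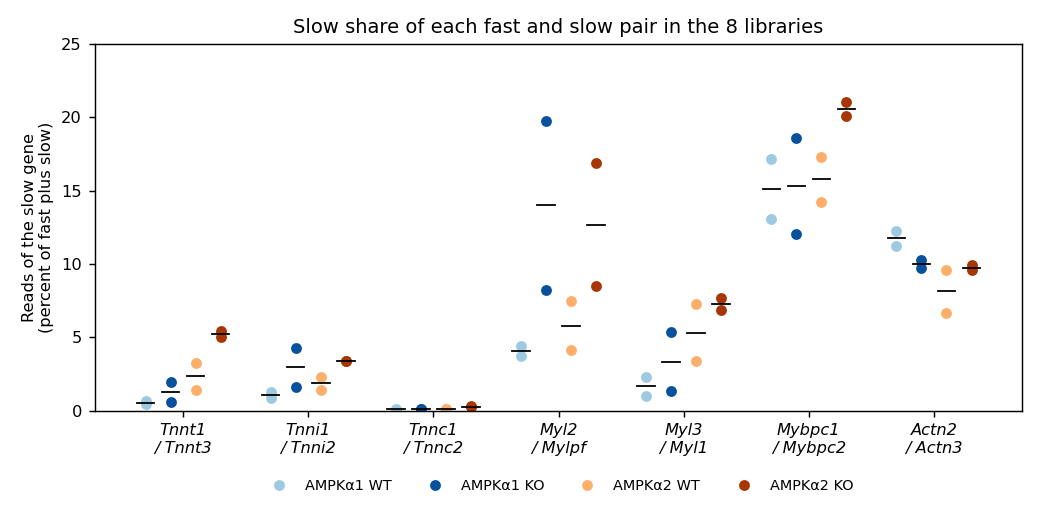
Percent of the reads of each fast and slow pair that belong to the slow gene, where a point is 1 library and a black line is the mean of the 2 libraries of a group. AMPKα2 KO points lie above AMPKα2 WT points for the troponin, *Myl2* and *Mybpc1* pairs, and AMPKα1 KO library 1 reaches 19.8% in the *Myl2* pair.

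Of 10 other fast fiber genes (*Myh4*, *Myh1*, *Myh2*, *Atp2a1*, *Pvalb*, *Casq1*, *Mylk2*, *Myoz1*, *Tmod4* and *Mybph*), 0 were called, 10 were below 0 for AMPKα1 (median −0.63) and 8 above 0 for AMPKα2 (median 0.32). Of 6 other slow fiber genes (*Myh7*, *Tpm3*, *Atp2a2*, *Myoz2*, *Casq2* and *Pln*), 0 were called and all 6 were above 0 in both models, with medians of 0.61 and 0.88. The 5 thin filament partners (*Acta1*, which is also among the fiber markers, *Tpm1*, *Tpm2*, *Lmod2* and *Lmod3*) had 4 values below 0 in the AMPKα1 model (median −0.16) and 5 above 0 in the AMPKα2 model (median 0.42), with 0 called. Of 4 developmental isoform genes (*Myl4*, *Myh3*, *Myh8* and *Tnnt2*), 2 (AMPKα1) and 3 (AMPKα2) could be tested, and 0 were called. The 5 fiber markers named above were all below 0 in the AMPKα1 model (median −0.37), with 0 called. In the AMPKα2 model 4 of them were above 0 (median 0.64), also with 0 called.

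The genes whose level followed the summed level of the 7 most closely over the 8 libraries were *Ndufb9* (Pearson r = 0.985 on log2 CPM), *D8Ertd738e* (0.982), *Mrpl12* (0.974), *Idh3b* (0.971) and *Phb* (0.970), out of 1874 genes with a mean of at least 50 CPM. The 8 points fall into the 2 models, whose levels lie apart, and no p is given.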

How the data were processed

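WTTS-seq libraries were made from total RNA of gastrocnemius muscle, 1 library per mouse. Per the study's methods, the authors trimmed reads, mapped them with TMAP to the mouse genome (GRCm38.p5 in the labels), took the end of each read as a polyadenylation site, merged nearby sites and assigned genes with Cuffcompare. The deposited table holds raw counts per site without normalization, for sites with at least 16 reads in total. Between 1.88% and 17.9% of the reads of a library lay on sites with no gene.

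Counts were summed per gene symbol and tested with edgeR 4.0.16 (TMM factors, robust quasi-likelihood F-test) in R 4.3.3, on features with at least 16 reads over the libraries of a fit. A Benjamini-Hochberg adjusted p under 0.1, taken over all features, was called. Standard errors were derived from the F statistic. Site usage used diffSpliceDGE. CPM were scaled within a model. DESeq2 1.42.0, other scalings, no filter, an adjusted p under 0.05, strand and site choices, a replicate block, a joint fit and leaving out each library were alternatives. Shares carry 95% Wilson intervals in the tables. Fits were tested on simulated data. The pass condition was set at a variation between libraries below that of these data, so it does not give the power of the fits here. Positions and sequences come from GENCODE M21 (GRCm38). The replicates are separate mice.

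Members and gene lists were chosen with earlier results of these data known. The text names the 7 members, the targeted genes, slow counterparts and list genes past the test. It names the leading sites, sites with at least 10% of the reads of a gene in a library, called sites, and the 2 member sites with the lowest p per model and direction. It also names the 5 genes most like the summed members. A further gene list is not reported here.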

Additional observations from a re-analysis of the deposited data

Results flagged for a closer look

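The *Tnnt3* coding exon site at chr7 position 142511334 had levels of 556 and 552 CPM in AMPKα1 KO and of 2238 and 799.8 CPM in AMPKα1 WT, so both KO libraries were below both WT libraries. It had 1046 and 1358 CPM in AMPKα2 KO and 632 and 934 CPM in AMPKα2 WT, so both KO libraries were above both WT libraries. The KO effects, −1.45 and 0.62 on the log2 scale, differ by 2.07, and this difference was not tested at the level of the site. For *Tnnt3* as a whole the KO effects were −1.53 and 0.15. Usage of the site against the other *Tnnt3* sites was 0.23 (AMPKα1) and 0.60 (AMPKα2), neither called by edgeR. The AMPKα1 value of the site ran from −1.99 to −0.54 with 1 library left out, and −0.54 was the value without WT library 1.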

How the results depend on the processing

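DESeq2 called 1 member in the AMPKα1 gene comparison (115 genes in all) and 3 sites in the AMPKα2 site comparison (96 in all). Library totals gave 1 AMPKα1 site (the *Tnnt3* leading site, −1.43, adjusted p = 0.0683; 49 sites in all) and 2 AMPKα2 sites in site usage (21 in all). Without the filter on low counts there were 8 AMPKα2 sites (557 in all) and 3 in site usage (43 in all). An adjusted p under 0.05 left 0 in site usage (15 in all). With the replicate block, 8 AMPKα2 sites were called (520 in all), and site usage called 0 (18 in all). Deviations of same-numbered libraries correlated at 0.114 (AMPKα1) and −0.0879 (AMPKα2). With 2 libraries a group, these values cannot show whether the replicate numbers pair mice. Leaving out 1 library gave 0 to 6 member sites in the AMPKα1 site comparison (6 without WT library 2, 170 in all), 0 to 1 in the AMPKα2 one (1 without KO library 1, 13 in all) and 0 to 3 in AMPKα2 site usage (3 without KO library 2, 24 in all), and 0 members in every gene comparison. The lone library of an arm is then assumed to vary like the others. Values that changed sign in the AMPKα2 model were *Tnnt3* (−0.021), *Mylpf* (−0.27) and *Actn3* (−0.096) with library totals, *Mylpf* (−0.090) with the replicate block, and *Tnnt3* (−0.21) from its leading site alone. The cause was not tested. Library totals shifted the median of all features to 0.22 (AMPKα1 genes), 0.38 (AMPKα1 sites), −0.19 (AMPKα2 genes) and −0.35 (difference between models). As a share of reads on sites with a gene, the members took 6.95% in AMPKα1 KO and 3.65% in AMPKα2 WT.

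Over all features, edgeR called 0 AMPKα1 genes, 51 AMPKα2 genes, 9 genes between models, 2 AMPKα1 sites and 13 AMPKα2 sites, against 115, 74, 172, 218 and 96 by DESeq2. The alternatives ranged from 0 to 115, 4 to 376, 0 to 542, 0 to 432 and 0 to 557. In the AMPKα1 model the biological coefficient of variation was 104% at gene level, against 26.2% in the AMPKα2 model.

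Leaving out 1 library changed the sign of some values, with these ranges. Gene level ran from −1.35 to 0.17 for *Tnnc2* (AMPKα1), from −0.18 to 0.057 for *Tnni2*, −0.70 to 0.51 for *Mylpf* and −0.097 to 0.34 for *Actn3* (AMPKα2), and from −0.52 to 1.11 for *Tnnc2* between models. Leading sites ran from −1.54 to 0.096 for *Tnnc2* (AMPKα1), and from −0.79 to 0.32 for *Mylpf* and −0.099 to 0.25 for *Mybpc2* (AMPKα2). Reads away from the leading site ran from −3.88 to 1.06 for *Tnnc2*, −1.02 to 0.83 for *Mylpf* and −1.13 to 0.35 for *Actn3* (AMPKα1), and from −0.11 to 1.89 for *Tnni2* and −0.19 to 0.89 for *Mybpc2* (AMPKα2). Among 7 further large or low-p sites in each model, 2 (AMPKα1) and 4 (AMPKα2) changed sign under some alternative.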
